A study of Saccharomyces cerevisiae with 24 samples.

Results

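The genes described here are those annotated near the chromosome ends of W303, a laboratory strain of the budding yeast Saccharomyces cerevisiae. A gene feature on chromosomes 1 to 16 was taken as subtelomeric when its midpoint lay within 30 kb of the first or last base of its chromosome. Genes whose names start with FLO, HXT, HML or HMR were left out, which removed 14 genes. The rule selected 283 of 5613 nuclear gene features, and the annotation held 5630 gene features in all. The rule uses position and name only.

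The study measured by ChIP-seq where FLAG-tagged Uls1, a Snf2-family ATPase, and HA-tagged Top2, the type II topoisomerase, bind in yeast exposed to acriflavine (ACF), a Top2 poison. The 24 libraries form 12 groups of 2, with IP and input DNA as separate groups. In wild-type (WT) cells Uls1-FLAG was studied at 100 µM ACF and without ACF, and Top2-HA was studied at 250 µM ACF and without ACF in uls1Δ cells, which lack ULS1, and in WT cells. All cultures grew in rich YPD medium, and exposure lasted 2 h. The paper states that its Top2 ChIP-seq strains carried an HA-tagged TOP2 gene in addition to the native one. None of the libraries' signal, peak calls or sequencing depth entered the work, so nothing below measures Uls1 or Top2 at these genes. By the paper's methods the reads were mapped to W303, and the authors' annotation of that genome was analysed instead. Its values are positions, names and notes, they carry no replicate error, and no tests were made on them.

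Yeast chromosomes end in short G-rich repeats made by telomerase, followed inwards at some ends by Y′ elements that encode a helicase, and then by an X element. The zone behind them holds gene families whose copies lie at several ends and recombine with one another, with roles in sugar use, metal and vitamin uptake, flocculation and the cell wall. Genes placed in this zone can be silenced by the Sir proteins, which spread inwards from the telomere. S288C is the reference strain of the species, and its sequence, build R64 of RefSeq, was the only genome sequence used here.

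The sequences below were read from S288C at genes that carry the names of members, and the W303 sequence itself was not used here. The left end of S288C chromosome 7 is given as an example of a chromosome end. Its first 60 bases begin with the C-rich strand of the repeat, which does not fill the whole stretch.
end of chromosome 7 (chr7:1-60, plus strand): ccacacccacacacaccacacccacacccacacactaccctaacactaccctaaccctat

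The first 60 coding bases of 6 seripauperin genes show how alike the copies of a subtelomeric family can be. Capitals mark bases that differ from PAU8.
PAU8 (chr1:2110-2169, minus strand): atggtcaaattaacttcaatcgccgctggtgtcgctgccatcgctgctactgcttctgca
PAU11 (chr7:6593-6652, minus strand): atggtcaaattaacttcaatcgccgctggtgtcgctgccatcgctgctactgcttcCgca
PAU13 (chr8:12226-12285, minus strand): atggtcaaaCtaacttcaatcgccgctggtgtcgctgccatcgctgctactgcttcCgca
PAU20 (chr15:11852-11911, minus strand): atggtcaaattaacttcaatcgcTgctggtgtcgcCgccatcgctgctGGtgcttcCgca
PAU24 (chr2:809057-809116, plus strand): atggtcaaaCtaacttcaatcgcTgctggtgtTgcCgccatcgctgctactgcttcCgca
PAU3 (chr3:307801-307860, plus strand): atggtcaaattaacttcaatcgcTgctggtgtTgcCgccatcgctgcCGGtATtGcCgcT
PAU11 differed from PAU8 at 1 of these 60 bases, PAU13 at 2, PAU20 at 5, PAU24 at 5 and PAU3 at 11.

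The next genes are pairs in which S288C has 2 names while W303 used the first of them for 2 features and the second for none. PAU6 and PAU18 were identical over their whole 363 bp, and IMA4 and IMA3 over their whole 1770 bp, so their first 60 bases contain no capitals.
PAU6 (chr14:781918-781977, plus strand): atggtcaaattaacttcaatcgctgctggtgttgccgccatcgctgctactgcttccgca
PAU18 (chr12:13386-13445, minus strand): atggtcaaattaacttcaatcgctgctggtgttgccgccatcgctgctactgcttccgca
IMA4 (chr10:18477-18536, minus strand): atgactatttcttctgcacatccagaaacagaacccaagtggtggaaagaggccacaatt
IMA3 (chr9:18494-18553, minus strand): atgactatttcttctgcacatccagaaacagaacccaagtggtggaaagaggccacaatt
The whole PHO11 and PHO12 genes differed at 4 of 1404 bases, and FEX1 and FEX2 at 8 of 1128 bases. The stretches below surround the first difference of each pair, with the differing bases in capitals.
PHO11 (chr1:225702-225761, plus strand): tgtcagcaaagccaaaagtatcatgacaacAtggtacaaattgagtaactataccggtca
PHO12 (chr8:552341-552400, plus strand): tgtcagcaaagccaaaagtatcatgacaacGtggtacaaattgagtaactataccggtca
FEX1 (chr15:1077381-1077440, plus strand): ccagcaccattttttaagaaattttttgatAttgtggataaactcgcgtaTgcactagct
FEX2 (chr16:13699-13758, minus strand): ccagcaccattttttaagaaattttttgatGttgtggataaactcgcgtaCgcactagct

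Genes were sparse at the ends. The windows of 30 kb together made up 7.81% of the nuclear bases and held 5.04% of the nuclear genes (283 of 5613). There were 2.95 members per 10 kb in the windows, against 4.68 genes per 10 kb in the interior of the chromosomes. Genes, with the same names left out, covered 36.8% of the bases in the windows and 70.0% of those in the interior. The space between neighbouring genes had a median of 792.5 bp in the windows and 378 bp in the interior, and gaps over 3000 bp were 30 of 280 (10.7%) in the windows and 106 of 5317 (1.99%) in the interior. In S288C, whose annotation is separate, the same rule gave 363 protein-coding genes, or 3.78 per 10 kb, against 5.05 per 10 kb in its interior. These 363 include 8 YRF1 genes for the Y′ helicase, whereas the W303 annotation has a separate class for Y′ elements.

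**Figure D1:**
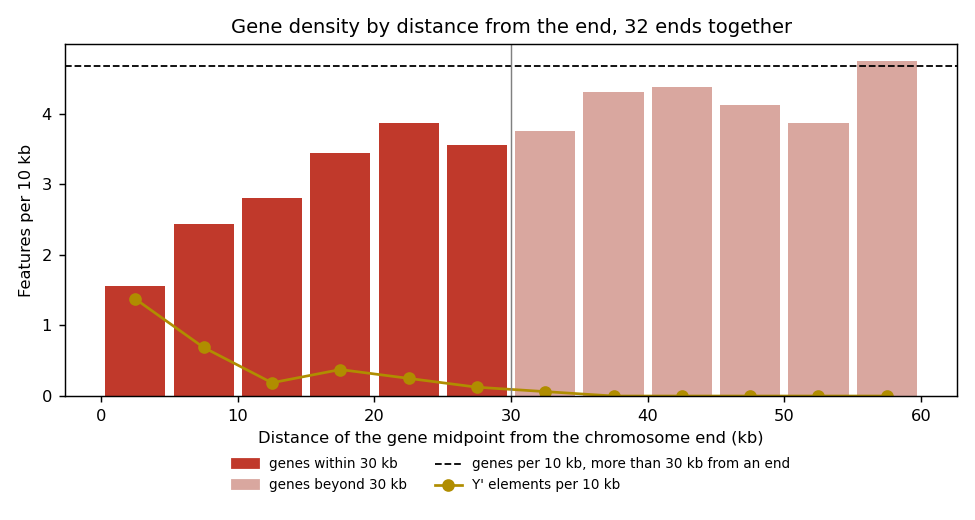
Genes per 10 kb (bars) and Y′ elements per 10 kb (gold line) in steps of 5 kb from the chromosome end, summed over 32 ends; dark bars are the 283 members, pale bars genes farther in, and the dashed line is the interior density of 4.68. Density was 1.56 in the first 5 kb and 3.88 between 20 and 25 kb.

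Density increased with distance from the end over the first 25 kb. In steps of 5 kb it was 1.56, 2.44, 2.81, 3.44, 3.88 and 3.56 genes per 10 kb, with 25, 39, 45, 55, 62 and 57 members. In the first 5 kb, 14 of the 32 ends had no member. Features labelled as Y′ elements showed the opposite arrangement: 22 of them lay in the first 5 kb, 11 in the next 5 kb and 48 of all 54 in the windows, at 16 ends. Retrotransposon features (TKP/TY) numbered 8 of 86 in the windows, at 3 ends. The 16 ends with a feature so labelled had a median of 8 members (1 to 14), and the 16 ends without one had a median of 9.5 (3 to 15), and these ranges overlap. This split follows the label only. The end 7 right, with 9 members, counts as without one, although its outermost member is the Y′ helicase gene YRF1-3.

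The 32 ends differed widely in their number of members. Each held 8.84 ± 3.46 members (mean ± SD over 32 ends), with a median of 9 and a range of 1 to 15. Left ends held 150 members in all and right ends 133. The left end of chromosome 13 had the most, with 15, among them ERO1 (oxidative protein folding), ERG13 (sterol synthesis), TUB3 (alpha-tubulin) and PHO84 (high-affinity phosphate transport). The left end of chromosome 6 and the right end of chromosome 9 had 14 each. At the other extreme, the right end of chromosome 4 had a single member, a 63 bp feature named YPR202W at 28.0 kb, behind 8 Y′ features. The right end of chromosome 12 had 2 members and 6 Y′ features, and the left end of chromosome 1 had 3 members beside the left-out FLO9. The longest gap centred in a window was 19.0 kb, between the inner feature named YLR462W, itself outside the window at 34.0 kb, and the outer one named PAU4 at the right end of chromosome 12. It held 5 Y′ features, of which 1 lay beyond 30 kb. The next, 15.0 kb between YDR541C and PAU6 at the left end of the same chromosome, held 4.

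**Figure D2:**
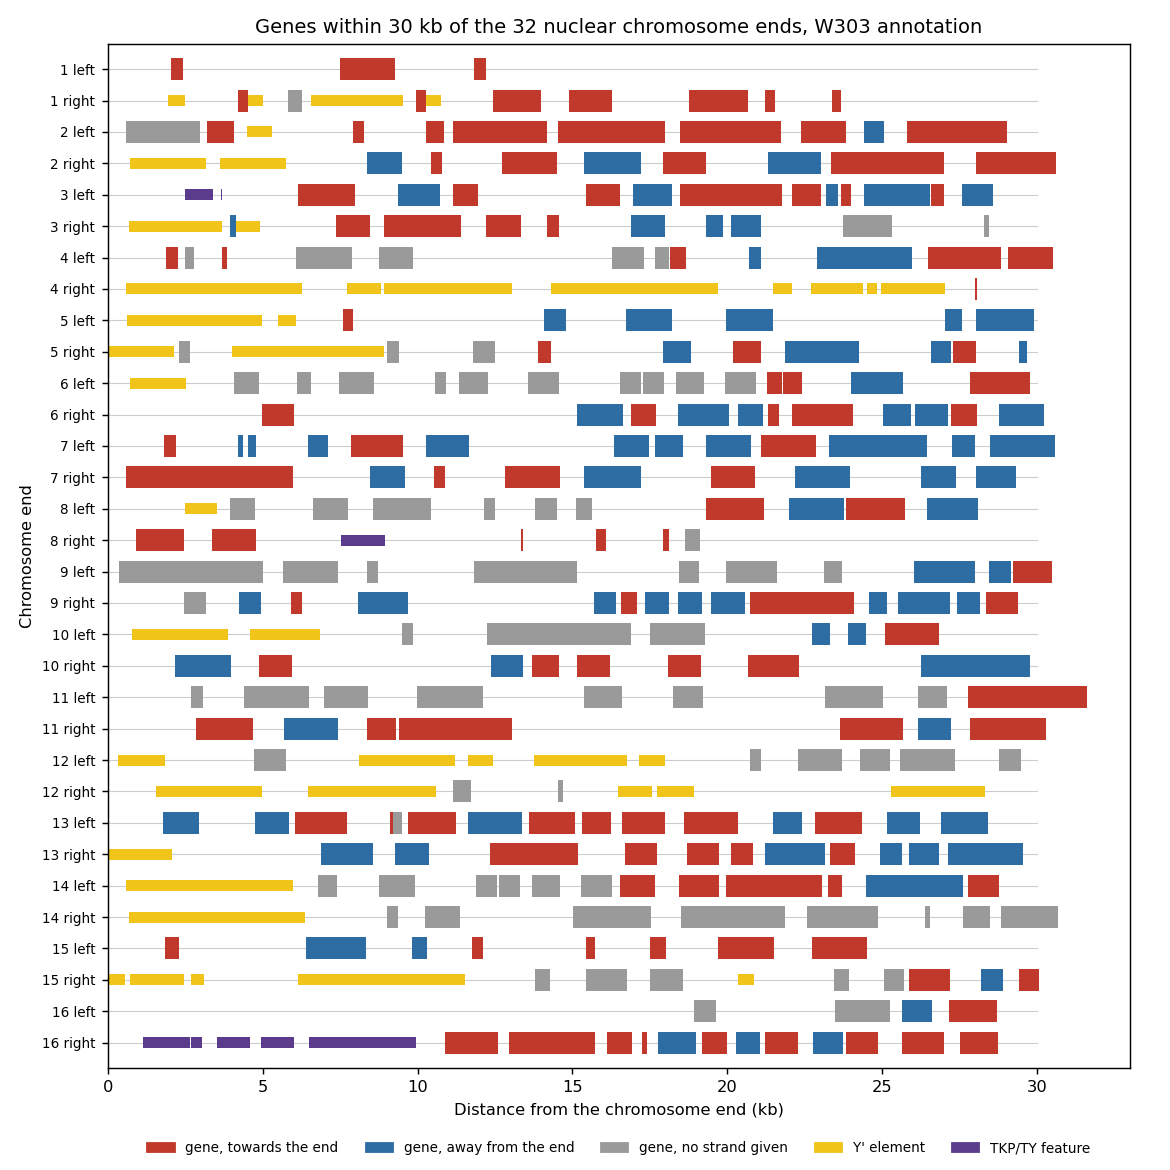
Members at each of the 32 chromosome ends (rows), drawn to scale against distance from the end in kb and coloured by direction of transcription; thin gold and purple bars are Y′ and TKP/TY features, and the 14 genes left out by name are not drawn. The right end of chromosome 4 has 1 member, the left end of chromosome 13 has 15, and grey genes without a strand lie in runs at several ends.

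The outermost member began at a median of 4.01 kb from the end, and at 20 ends it began within 5 kb. The closest to an end was VTH1 at the left end of chromosome 9, 0.356 kb from the last base, which encodes a relative of the vacuolar sorting receptor Vps10. Next came YBL113C on 2 left (0.583 kb), YRF1-3 on 7 right (0.596 kb) and IMD1 on 8 right (0.900 kb). PAU genes were the outermost members at 6 ends, namely PAU8 (1 left), PAU11 (7 left), PAU1 (10 left), PAU16 (11 left), PAU6 (14 right) and PAU21 (15 right). At 5 ends no member began within the first 10 kb. Near the 30 kb limit, POT1 (29.8 kb, 9 left) and GUD1 (29.8 kb, 4 left) lay just inside, and ERV29 (30.1 kb, 7 right) and YLL059C (30.4 kb, 12 left) just outside.

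Members had a lower median length than other genes. It was 1041 bp (quartiles 627 and 1707 bp), against 1239 bp (756 and 1920 bp) for the 5302 other nuclear genes. Genes under 500 bp made up 57 of the members (20.1%) and 12.1% of other genes. A length of 300 to 400 bp, the size class of the seripauperins, was held by 28 members (9.89%) and 3.66% of other genes. Genes over 3000 bp were 19 members (6.71%) and 8.28% of other genes. The longest member was YRF1-3, the Y′ helicase gene, at 5388 bp, followed by VTH1 and VTH2 at 4650 bp each, OXP1 (5-oxoprolinase) at 3861 bp and NFT1 (an ABC transporter) at 3657 bp. The shortest were YPR202W at 63 bp, YAR066W on chromosome 8 at 69 bp, a part of YNR065C at 132 bp, and YEL073C on chromosome 4 and YPS5 at 144 bp each. The S288C gene of each of these 5 names was longer than the member.

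**Figure D3:**
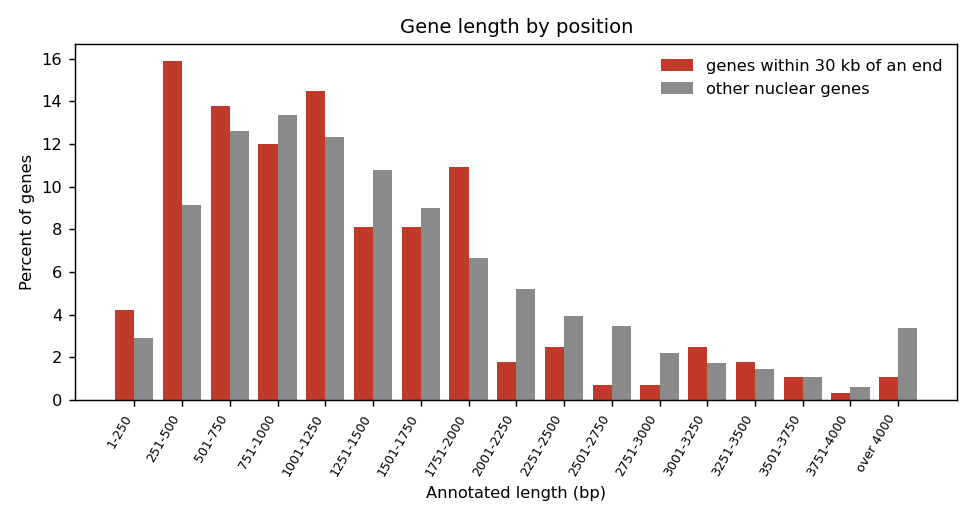
Percent of genes in classes of annotated length (bp) for the 283 members (red) and the 5302 other nuclear genes (grey). The share of members exceeds that of other genes most in the class over 250 and up to 500 bp, with 15.9% and 9.15%, and is below it in each class between 2000 and 3000 bp.

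Transcription ran towards the end more often than away from it. Of the 205 members with a strand, 119 (58.0%) were transcribed towards their end and 86 away, while 51.0% of other nuclear genes with a strand pointed to their nearer end. From the end inwards in steps of 5 kb the share was 64.7, 57.1, 79.3, 61.5, 56.0 and 42.9%, and only in the innermost step did more stranded members point away (28) than towards the end (21). Among stranded members whose name was used once the share was 54.8%. In S288C, 201 of 363 genes of the windows (55.4%) pointed to the end. The direction differed between families, as given below, and genes of a family at different ends may share an origin, so they are not independent of each other.

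A strand was missing for many members. No strand was given for 78 members (27.6%), against 84 other nuclear genes (1.58%) and 2.99% of all nuclear genes. At the ends of chromosome 12 and the right end of chromosome 14 no member had a strand, at 8 ends more members lacked one than had one, and at 13 ends every member had one. Members without a strand lay at a median of 14.1 kb from the end and those with one at 19.5 kb. At 14 of 16 ends with both kinds, the median distance of the strandless members was the smaller. On 11 left, 8 members in a row from PAU16 to URA1 had none, while OXP1 behind them had one. The S288C gene of the same end gave a strand for 57 of the 78, and 31 of these pointed to the end. Counting these as well, 150 of 262 members (57.3%) pointed to the end. Features of one name at one end, such as the 2 named PAU21 on 15 right, took the strand of the same S288C gene, which cannot show the direction of each copy. All 168 stranded members with an S288C gene at the same end had the strand of that gene.

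Prefixes with 3 or more members numbered 13 and held 72 of 283 genes (25.4%). A prefix with 3 or more features anywhere in the nuclear genome was borne by 52.3% of members and 50.1% of other nuclear genes. Of their features in the nuclear genome, those of AAD, MAL, IMA, ERR and YRF lay in the windows without exception, and 47 features of the other 8 prefixes lay outside. A shared prefix need not mean a shared origin, since prefixes such as PHO, DAL and THI name a pathway.

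**Figure D4:**
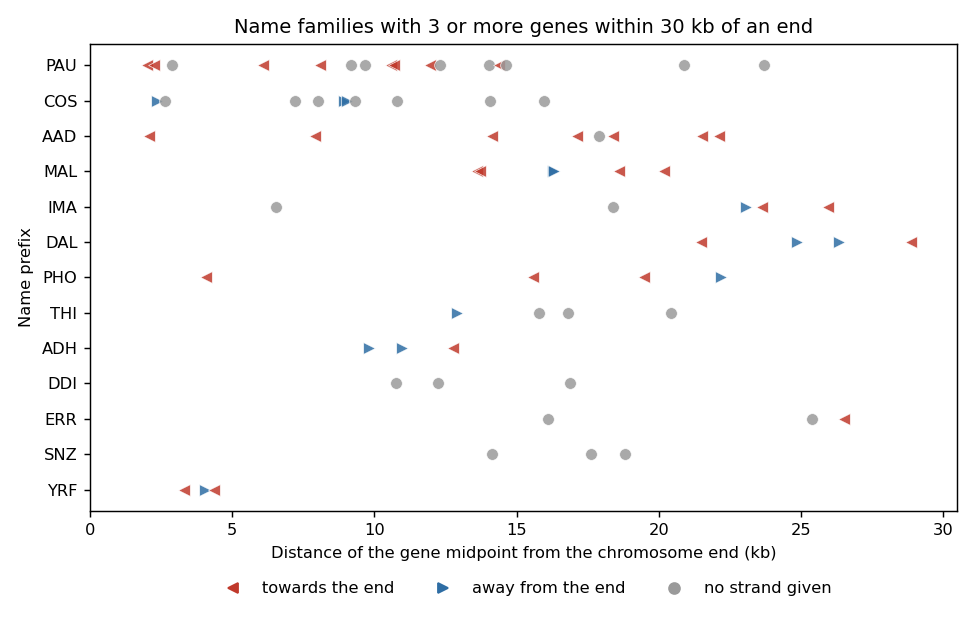
Distance from the chromosome end (kb) of each member of the 13 name prefixes with 3 or more members, with triangles pointing in the direction of transcription (left is towards the end) and grey circles for genes without a strand. All 8 stranded PAU genes point to the end, and all 3 stranded COS genes point away.

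The PAU genes encode seripauperins, small cell wall proteins of the family to which the anaerobically expressed mannoproteins belong. They were the largest family, with 16 of 23 nuclear features in the windows, at 15 ends. Their midpoints lay 2.00 to 23.7 kb from the end with a median of 10.7 kb, and their lengths ran from 168 to 495 bp with a median of 363 bp. All 8 stranded PAU members were transcribed towards the end. For 7 of the other 8 the S288C gene of the same end gave a strand, and all 7 pointed to the end as well, as did all 19 PAU genes in the S288C windows. The 2 features named PAU21 are among these 7 and took the strand of a single S288C gene. Pairwise, the S288C genes of the 14 PAU names were identical at a median of 85.5% of the bases of the longer gene. PAU24 and PAU12 were the most alike at 98.9%, and PAU9 and PAU21 had the lowest value, 20.0%. Length limits that lowest value, since PAU9 measures 129 bp in S288C and PAU21 495 bp. DAN4, a mannoprotein gene of 3540 bp at 28.0 kb on 10 right, was the only other member of the list of seripauperins and anaerobic mannoproteins, of which 17 of 29 features lay in the windows. TIR1 to TIR4, DAN1, PAU2, PAU5, PAU7, PAU17 and PAU23 lay farther in, as did one feature each of PAU4 and PAU9.

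The COS genes encode membrane proteins that help sort other proteins into endosomes. Of 11 features 10 were members, at 9 ends, and COS111 lay outside. They sat between 2.36 and 15.98 kb from the end, with a median of 8.98 kb. COS2, COS3 and COS6, the 3 with a strand, were transcribed away from the end, and of the 7 without one the S288C gene pointed away in 6. Both features named COS4 are among these 6 and took the strand of a single S288C gene. COS7 measured 282 bp against 1152 bp in S288C, and the others measured 984 to 1224 bp. COS2 and COS3 of S288C, on chromosomes 2 and 13, were identical over 100% of their bases.

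The AAD genes encode putative aryl-alcohol dehydrogenases. All 8 features, at 6 ends, were members, and the 7 with a strand pointed to the end. These features need not be 8 separate genes. The 2 named AAD4 lay side by side on 4 left, as did AAD16 and AAD6 on 6 left. In S288C AAD6 is a pseudogene and AAD16 is not among the genes used. All 5 AAD genes in the S288C windows pointed to the end. Their lengths ran from 432 bp for AAD15 to 1131 bp for AAD14. Of the wider list of alcohol, aldehyde and aryl-alcohol dehydrogenases, 12 of 26 features were members, including ADH4 on 7 left (10.97 kb), ADH6 on 13 right (9.83 kb), ADH7 on 3 right (12.8 kb) and the formate dehydrogenase FDH2 on 16 left (19.3 kb). ADH4 measured 1398 bp against 1149 bp in S288C, and ADH7 1149 bp against 1086 bp.

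Genes for using maltose, isomaltose and sucrose lay mostly in the windows, with 14 of 16 features listed by name, at 7 ends. The MAL loci each hold a maltase, a maltose permease and an activator. On 2 right these were MAL32 (13.6 kb), MAL31 (16.3 kb) and MAL33 (18.6 kb), and on 7 right MAL12 (13.7 kb), MAL11 (16.3 kb) and MAL13 (20.2 kb). The 6 genes had their S288C lengths, and at both ends the permease pointed away from the end and the other genes towards it. Isomaltase genes followed: IMA1 on 7 right (23.1 kb), IMA2 on 15 left (23.6 kb), IMA5 on 10 left (26.0 kb), and IMA4 on 9 left (6.53 kb) and again on 10 left (18.4 kb). The alpha-glucoside permease genes MPH2 (4 left, 6.97 kb) and MPH3 (10 right, 3.07 kb) and the invertase gene SUC2 (9 left, 27.0 kb) completed the list. SUC2 measured 1983 bp, against 1599 bp in S288C. YPR196W, an S288C gene of the right end of chromosome 16, and MPH1, which encodes a DNA helicase and matched by its letters only, lay outside. ZNF1, a zinc finger regulator also on the list, is not among these features because its W303 feature bears only a systematic name, and it lay at 35.9 kb.

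Of 30 listed features for thiamine, pyridoxine and biotin, 10 were members and 20 lay outside. THI5, THI11, THI12 and THI13, which act in the synthesis of the pyrimidine part of thiamine, were each 1023 bp long and lay at 12.9 to 20.4 kb on 4 different ends. The SNZ and SNO genes, a family for pyridoxine synthesis, lay beside THI genes on 6 left and 14 left, and SNZ1 and SNO1 lay outside. BIO2, the biotin synthase gene, lay at 26.8 kb on 7 right. The S288C genes of the 4 THI members were identical to each other at 97.8% to 99.3% of bases.

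Of 32 listed features for metals 9 (28.1%) lay in the windows. They were the siderophore transporter genes ARN1, ARN2 and ENB1, the ferric reductase gene FRE2, the low-affinity iron transporter gene FET4, the zinc transporter gene ZRT1, the copper transporter gene CTR1 and the glutathione exchanger genes GEX1 and GEX2. ARR1, ARR2 and ARR3, which give resistance to arsenic, lay near an end in S288C but 189 to 191 kb from one in W303. Of the list of amino acid, sulfate and allantoate genes 13 of 34 features were members. DAL2, DAL3 and DAL7, enzymes of allantoin use, lay at 24.9 to 28.9 kb on 9 right, and the allantoate permease gene DAL5 at 21.5 kb on 10 right. SAM3 and SAM4, for uptake and use of S-adenosylmethionine, lay on 16 left, and MMP1 and MHT1, for uptake and use of S-methylmethionine, on 12 left.

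YRF1, the Y′ helicase gene, has 8 genes in S288C, and 3 W303 features bore such a name: YRF1-3 at 5388 bp, YRF1-5 at 309 bp and YRF1-7 at 168 bp, whose S288C genes measure 5728, 5391 and 5728 bp in that order. The annotation also held 9 features labelled as Y′ elements of 4140 to 5676 bp, so the names do not count the copies. The 3 ERR features, for enolase-related proteins, all bore the name ERR1 and lay on 15 right, and 2 of them had the S288C length of 1314 bp. S288C has 3 ERR genes, and no W303 feature bore the names ERR2 or ERR3. Of the list of enolase-related, DJ-1 and vacuolar sorting genes 6 of 10 features were members, namely the 3 named ERR1, HSP33, VTH1 and VTH2.

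Pairs of ends shared runs of name prefixes in the same order from the end, a comparison chosen after the data were seen. Of 496 pairs of ends, 23 shared 2 or more prefixes in order and 5 shared 3 or more, which involved 6 ends. A prefix can join unlike genes, as with RTG3 and RTG2, and where only genes of the same name or with a blastn alignment between their S288C genes were counted, 17 pairs of ends shared 2 or more and 4 shared 3 or more. The longest run of prefixes joined 6 left (COS4, DDI2, SNO3, SNZ3, THI5, AAD16) to 14 left (COS1, DDI2, SNO2, SNZ2, THI12, AAD14). By the stricter count this pair of ends shared 5 genes, as many as 2 right and 7 right. This run of prefixes spanned 13.5 kb on 6 left, counted from the outer COS4, and 7.78 kb on 14 left. On 6 left a further COS4, a further SNZ3 and DDI3 lay inside it. Inwards of the inner COS4 (14.1 kb) came DDI3 (678 bp) and the SNZ3 features of 669 and 897 bp. DDI2, SNO2 and SNZ2 on 14 left had these same lengths in that order. The 669 bp feature has the length of SNO2, and which gene it represents was not tested. Counted from the inner COS4, the run on 6 left would be shorter. DDI2 and DDI3 encode cyanamide hydratases. On 2 right and 7 right, COS2, PAU24, MAL32, MAL31 and MAL33 faced COS6, PAU12, MAL12, MAL11 and MAL13, over 9.68 kb on 2 right and 11.2 kb on 7 right, and all 5 pairs had the same orientation. On 4 left and 10 right the run was MPH2, SOR2, THI13 and AAD4 against MPH3, SOR1, THI11 and AAD10, over 10.9 kb on 4 left and 11.1 kb on 10 right. VTH1 and IMA4 on 9 left, and VTH2 and IMA4 on 10 left, lay 3.85 kb apart at both ends. GEX1 and VBA3 on 3 left matched GEX2 and VBA5 on 11 right, 2.99 kb apart on 3 left and 2.78 kb apart on 11 right.

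A name was used more than once for 40 members (14.1%), against 1.87% of other nuclear genes and 2.58% of all nuclear genes. These 40 members bore 23 names, of which 8 occurred at 2 or more ends and 16 had all their features in the windows. For 7 names every feature had the S288C length, as with IMA4, PAU6, PAU21, PHO11, YAR064W, YDR541C and YLR462W. For another 7 no feature had it. The 2 features of AAD4 on 4 left measured 459 and 516 bp, 975 bp together against 990 bp in S288C, and lay side by side. YNR065C on 14 right was given as features of 132 and 2283 bp, 1530 bp apart and 2415 bp together, against 3351 bp in S288C.

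Several repeated names were accompanied by an unused name of a near-identical gene. Of the 22 repeated names with an S288C protein-coding gene, 13 (59.1%) had another S288C gene identical over at least 90% of the longer of the pair, and for 10 of the 13 no W303 feature bore the partner's name. Among 229 names used once, 42 (18.3%) had such a relative, and 13 of these relatives had no W303 feature. All 55 relatives lay within 30 kb of an S288C end. The features named PHO11 on 1 right (15.6 kb) and 8 right (4.07 kb) were both 1404 bp, and PHO12, which lies on 8 right in S288C, had no feature. IMA4 on 9 left lay at the end where S288C has IMA3, beside VTH1, and IMA3 had no feature. PAU6 on 12 left lay at the end where S288C has PAU18, which had none.

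The right end of chromosome 15 had the most repeated names, 7 of its 8 members. From inside outwards it held FEX1 (657 bp), HSP33, ERR1 (1314 bp), ERR1 (633 bp), PAU21 (495 bp), FEX1 (1077 bp), ERR1 (1314 bp) and PAU21 (495 bp). FEX1 encodes a fluoride exporter and HSP33 a protein of the DJ-1 family. The inner and outer FEX1 lay 11.7 kb apart, the 1314 bp copies of ERR1 10.4 kb and the PAU21 copies 9.67 kb. In S288C the names FEX1, HSP33, ERR1 and PAU21 occur once each on 15 right, and FEX2, HSP32, ERR2 and PAU22 occur on 16 left. No W303 feature bore the last 4 names, and the first member of 16 left began 18.9 kb from the end. The right ends of chromosomes 1 and 8 shared the names PHO11, YAR066W, YAR064W and YAR061W, with IMD2 beside PHO11 on 1 right and IMD1, its relative among the inosine monophosphate dehydrogenase genes, on 8 right.

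Less was noted about the function of members. The S288C label was uncharacterized for 49 members (17.3%), against 444 other nuclear genes (8.37%) and 8.78% of all. Verified genes were 217 members (76.7%) and 91.3% of other genes. No gene name was given for 62 members (21.9%), which had only a systematic name or another label, against 10.3% of other genes. The first 5 kb held 9 uncharacterized genes among 25 members (36.0%). In the 5 kb steps from 5 to 30 kb the share was 10.3% to 24.4%. From 30 to 60 kb it was 7.9% to 14.5%, and these ranges overlap. Notes that mention a telomere accompanied 46 members (16.3%) and 2.96% of other genes.

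The authors' note said that the size differed from S288C for 42 members (14.8%), against 8.83% of other nuclear genes and 9.16% of all. Of the 40 with a matched S288C gene 23 were shorter, 14 longer and 3 as long. The note also missed differences, since 8 members noted as the same size had another length. By direct comparison 16.9% of matched members differed in length. Among members whose name was used once, the share noted as different was 10.7%. In steps of 5 kb it was 40.0% in the first 5 kb and between 5.13% and 17.8% from 5 to 30 kb. Farther in, from 30 to 60 kb, the steps had similar shares of 7.25% to 16.1%. Among all matched members, the W303 minus S288C length was lowest for YRF1-7 (-5560 bp), YRF1-5 (-5082 bp), a part of YNR065C (-3219 bp), SLH1 on 7 left (-2763 bp) and YBL111C (-1230 bp). It was highest for YAR066W on 1 right (1284 bp), BSC5 (1056 bp), SUC2 (384 bp), YIL169C (336 bp) and YFL064C (292 bp). SLH1, a Ski2-like helicase gene, was among the members only through this 3141 bp feature. Its S288C gene lies 56.2 kb from the right end of chromosome 7, and a further W303 feature of 6711 bp lies on that arm. The 3141 bp feature lies between RTG2 and RMR1, where S288C has HFM1 (3716 bp), and no W303 feature bore the name HFM1. Its size difference may therefore compare 2 different genes, and which gene it represents was not tested.

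Most members were subtelomeric in S288C too. By systematic name 267 members matched an S288C protein-coding gene, and 238 of these (89.1%) lay within 30 kb of an S288C end, 225 of them at the same end. At the same end 157 members lay farther from the end in W303 and 68 nearer, and the W303 minus S288C distance had a median of 0.247 kb and a range of -11.1 to 16.2 kb. Another 13 belonged to an end of another chromosome in S288C, among them IMD2, PHO11 and YAR064W between chromosomes 1 and 8, DDI2 and DDI3 between 6 and 14, and IMA4 between 9 and 10. Seen from S288C, 223 of the 363 window genes had a member of their name, 40 had a feature elsewhere and 100 (27.5%) had no feature, against 396 of 5614 interior genes (7.05%) with none. The 100 had a median length of 457.5 bp, 56 were under 500 bp and 73 had only a systematic name. Named genes among them included PAU10, PAU14, PAU18, PAU19, PAU22, COS5, COS12, IMA3, PHO12 and SNO4. The Y′ helicase genes YRF1-1, YRF1-2, YRF1-4, YRF1-6 and YRF1-8 were among them too. By the paper's methods, sequences much like Y′ helicase or gag-pol genes were labelled as separate classes. A gene without a gene feature is therefore not necessarily absent from W303.

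**Figure D5:**
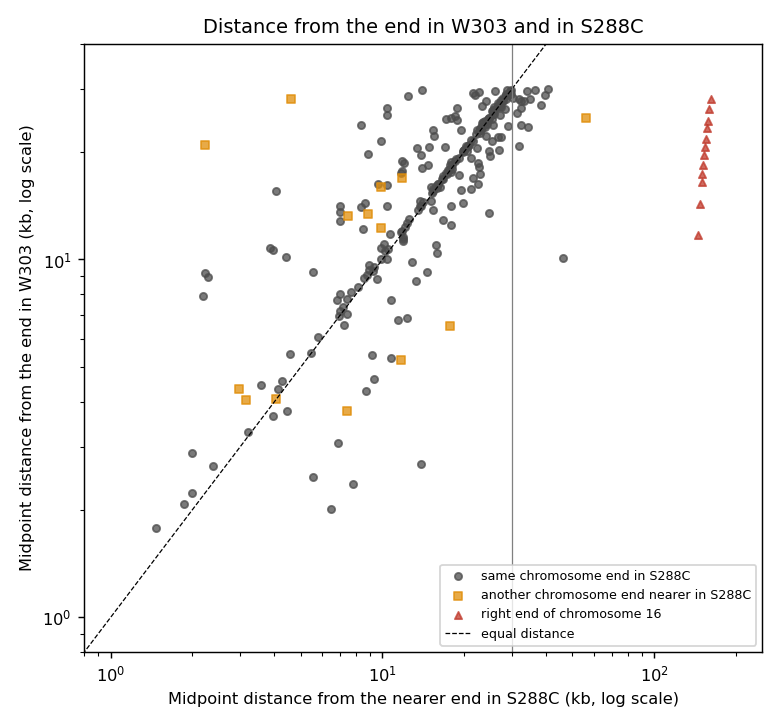
Distance of gene midpoints from the chromosome end in W303 (vertical) and from the nearer end in S288C (horizontal), both in kb on log axes, for the 267 matched members. The 12 members of the right end of chromosome 16 (red triangles) lie 145 to 161 kb from the end in S288C, while most others lie near the line of equal distance.

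The genes at the right end of chromosome 16 were not near an end in S288C. These 12 members, from RRP9 (U3 small nucleolar ribonucleoprotein) at 11.7 kb to CTR1 at 28.1 kb, lay 145 to 161 kb from the end in S288C, a uniform difference of 133 kb. They include CTF4 (sister chromatid cohesion), RPS23B (ribosomal protein), TOM5 (mitochondrial import), NAT3 (acetyltransferase) and SPN1 (transcription), and 5 TKP/TY features lay outside them. S288C genes of 16 right, such as QCR2, AQY1, OPT2, SGE1 and ARR1 to ARR3, lay instead between 170 and 204 kb from the left end of W303 chromosome 16. Whether this reflects the strain or its assembly was not tested. Without chromosome 16, 93.3% of matched members were within 30 kb of an S288C end. The other members that were interior in S288C lay on chromosomes 1, 7, 9, 10, 13 and 14. On 9 left, for example, SUC2 lay at 27.0 kb in W303 and 38.2 kb in S288C, and NIT1 at 23.4 kb in W303 and 34.4 kb in S288C.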

How the data were processed

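The only file analysed was the annotation that the authors made and deposited for the W303 assembly ASM216351v1. By the paper's methods, the authors ran the Yeast Genome Annotation Pipeline, searched missed ORFs and centromeres by BLAST and replication origin motifs with Biopython, and took names and notes on size from S288C. The sources used here give no version of the pipeline. The submitters' processing notes name the build R64, whereas the paper's methods name W303. ChIP-seq values of the 24 libraries were not used here.

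Gene features were placed by midpoint in windows of 30 kb at 32 ends (30000 bp), and described in steps of 5 kb. Orientation was taken from the strand. Members were matched to RefSeq R64 by systematic name; no coordinate was converted. Of 283 members 267 matched a protein-coding gene. S288C relatives were sought with blastn 2.17.0 (e-value 1e-05), counting identical bases over the longer gene, with 90% as the threshold. Python 3.11.15, numpy 2.4.6 and matplotlib 3.10.9 were used. Placement was tested on simulated data.

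Members and lists were chosen with earlier results of these data known. Genes named are outermost members, prefixes with 3 or more members, repeated names, the 5 longest, 5 shortest and 5 largest size differences each way, list members, genes placed elsewhere in S288C, and 2 on each side of the limit. S288C partners and genes given as examples of other roles were named after their values were seen. The protein part of the rule found no table. Alternatives were windows of 20 and 40 kb, other membership rules, and subsets of names or chromosomes.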

Additional observations from a re-analysis of the deposited data

How the results depend on the processing

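The results are descriptions without tests, and 36 of 44 alternative values over 11 results stayed within the spread set for them. With a window of 20 kb there were 164 members, 66.0% of the stranded ones pointed to the end, and 35.4% had no strand. With a window of 40 kb 20.6% had no strand, and 55.05% of the stranded ones pointed to the end. Of matched members 59.2% lay within 20 kb and 94.4% within 40 kb of an S288C end. Chosen after the data were seen, leaving out chromosome 16 gave 93.3% within 30 kb, and names used once gave 10.7% with a size note. Gene density was 2.56 per 10 kb in the 20 kb windows, 3.22 in the 40 kb windows and 3.53 with Y′ and TKP/TY features added, all below the interior value of 4.68. No paired analysis was possible because no library values were analysed. Read depth does not enter these positions. The assembly of the repeated ends and the assignment of near-identical names were not tested.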
